A study of Homo sapiens with 47 samples.

Results

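Proteasome subunit genes were described in 47 cells of HEK293, a long-established line from human embryonic kidney that carries adenovirus DNA, each sequenced alone. The rule took every row of the table whose symbol starts with PSMA, PSMB, PSMC or PSMD and a number, which matched 48 of 18651 gene rows. Of these, 34 are proteasome genes: 5 of the alpha ring, 7 of the beta ring, 2 inducible core genes, 9 of the base, 8 of the lid and 3 assembly chaperones. The other 14 rows encode no subunit and were kept out of all sums. They are 11 pseudogenes with 34 UMIs together, the antisense genes PSMD5-AS1 and PSMD6-AS2 with 13, and PSMC3IP, a recombination cofactor named for a partner, with 76. PSMA1, PSMA2, PSMA8, PSMB9 and PSMB11 are not analysed here, so the alpha ring is described from 5 of its 7 genes.

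The cells came from 1 cell line in DMEM medium with glutamine and serum, with no treatment, time course or second group in the labels. Each was lysed in a chamber of a microfluidic chip, and mRNA was primed with oligo-dT. The cDNA end that matches the transcript's 5′ end received a random stretch of bases as its identifier (UMI). Molecules are counted once by it, and the count is not divided by length. The labels do not say whether the cells came from 1 culture or more. Single cells are not replicates of a condition, so levels and spread are described and no conditions are compared.

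The proteasome is the protease that degrades ubiquitin-tagged proteins in the cytosol and nucleus. Its core particle is a barrel of alpha rings, which gate the entry, around beta rings, which hold the catalytic sites. The regulatory particle caps the barrel: its base holds ATPases that unfold substrates and feed them into the core, and its lid removes the ubiquitin chain. Immune signals such as interferon gamma induce PSMB8, PSMB9 and PSMB10, whose proteins take the places of the catalytic PSMB5, PSMB6 and PSMB7 in newly built cores, the immunoproteasome.

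A cell had 29325 to 138647 endogenous UMIs (median 59689) and 2573 to 4717 UMIs of synthetic spike-in RNAs. No 2 cells held identical values. Cell 52 stood apart with 12.1% of its UMIs from mitochondrially encoded mRNAs, against at most 5.02% in the others. Some values that rest on it are also given without it. Of 8 listed markers of HEK293, among them NEFL, NEFM, UCHL1, PAX2, EYA1 and LIN28B, 7 had a row and UMIs, 1626 in sum, and took 0.0166% to 0.137% of a cell's UMIs. UCHL1 with 817 and NEFM with 462 made up most of that sum, while EYA1 had 25 UMIs in 12 cells and PAX2 had 8 in 5 cells. Of the blood and immune markers 3 of 10 had a row, with 10 UMIs in sum and CD74 at 0, and of the fibroblast markers 2 of 5, with 13.

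Sequences of the promoters that frame the comparison of constitutive and inducible genes are shown here, from RefSeq on GRCh38.p14. Each runs from 250 bases before to 50 bases after an annotated start, 5′ to 3′ on the strand of the gene. PSMB5 (chr14:23035171-23035470, minus strand) is the constitutive partner of PSMB8 (chr6:32843998-32844297, minus strand). PSMB10 (chr16:67936801-67937100, minus strand) is the other inducible gene with a row. PSMB3 (chr17:38752491-38752790, plus strand) had the largest index of dispersion of the 29 constitutive subunits (3.86), a measure of spread against counting error that is explained below. Capitals mark matches on either strand to the core of the antioxidant response element (TGACNNNGC), which NFE2L1 and related factors bind, the interferon-stimulated response element (GAAA, any 2 bases, then GAAA), the CCAAT box (CCAAT) and the ETS site (CCGGAAG).
PSMB5: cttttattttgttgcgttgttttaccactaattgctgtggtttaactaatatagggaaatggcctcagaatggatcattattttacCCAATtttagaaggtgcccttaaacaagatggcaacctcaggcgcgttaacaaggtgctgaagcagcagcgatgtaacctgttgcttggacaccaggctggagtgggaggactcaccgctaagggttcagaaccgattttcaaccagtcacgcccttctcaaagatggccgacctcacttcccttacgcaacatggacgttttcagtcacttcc
PSMB8: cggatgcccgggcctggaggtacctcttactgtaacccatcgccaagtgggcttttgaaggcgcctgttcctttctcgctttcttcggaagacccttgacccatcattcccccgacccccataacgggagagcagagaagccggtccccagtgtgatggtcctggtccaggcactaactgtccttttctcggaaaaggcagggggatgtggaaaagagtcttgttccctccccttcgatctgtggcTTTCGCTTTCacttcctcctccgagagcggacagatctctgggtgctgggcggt
PSMB10: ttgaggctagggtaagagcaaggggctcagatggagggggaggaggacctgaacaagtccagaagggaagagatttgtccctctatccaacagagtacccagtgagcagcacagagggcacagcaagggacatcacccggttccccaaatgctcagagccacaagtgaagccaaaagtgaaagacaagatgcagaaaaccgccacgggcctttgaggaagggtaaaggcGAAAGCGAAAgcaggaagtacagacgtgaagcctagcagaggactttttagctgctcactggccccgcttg
PSMB3: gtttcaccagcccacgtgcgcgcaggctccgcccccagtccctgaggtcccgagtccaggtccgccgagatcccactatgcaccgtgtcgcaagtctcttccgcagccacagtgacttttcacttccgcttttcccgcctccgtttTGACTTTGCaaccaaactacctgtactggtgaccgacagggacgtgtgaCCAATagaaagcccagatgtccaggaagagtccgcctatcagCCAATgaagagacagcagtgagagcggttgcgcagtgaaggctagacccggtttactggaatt

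PSMB8 and PSMB10 each held 1 match to the interferon-stimulated element, which lay across the annotated start in PSMB8 and before it in PSMB10, while PSMB5 held 1 CCAAT box and PSMB3 held 1 antioxidant element core and 2 CCAAT boxes. Promoters were found for 29 of the 34 proteasome genes, among them 24 of the 29 constitutive subunits. PSMA7, PSMB1, PSMB6, PSMB7 and PSMD4 had no entry. These 24 genes have 30 promoter entries, some genes having several. The interferon-stimulated element was in 2 genes (PSMA4 and PSMB4) and 6.67% of their entries, against 3.57% of 35116 RefSeq promoters of this length. The ETS site was in 10 genes and 33.3% of their entries (10.3% of all promoters). The CCAAT box was in 14 genes and 46.7% of entries (34.6%), and the antioxidant element core in 7 genes and 23.3% of entries (13.3%). A match is a run of letters and was not tested as a binding site.

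Constitutive subunits were well expressed in every cell. The 29 genes took 26036 UMIs, or 0.892% of all endogenous UMIs (95% exact binomial interval 0.881% to 0.903%, counting error only). Their share of a cell's UMIs ran from 0.703% in cell 52 over a median of 0.882% to 1.04% in cell 74, a 1.49-fold range (SD 0.0781%, n = 47). The next lowest share was 0.721% in cell 80. In UMIs a cell had 224 (cell 23) to 1293 (cell 43), with a median of 531. In 37 cells each of the 29 genes had at least 1 UMI, and cell 31 had the fewest, 26. All 12 core genes were found in every cell, as were 11 of the 17 regulatory particle genes.

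The core genes were higher than the regulatory particle genes. The 12 core genes (7 PSMB and 5 PSMA) had 16572 UMIs and the 17 regulatory genes 9464, a ratio of 1.75 of the sums although the core has fewer genes. The median core gene had 1406 UMIs over the 47 cells and the median regulatory gene 487, a ratio of 2.89. Within cells the ratio of the sums ran from 1.36 in cell 8 over a median of 1.80 to 2.39 in cell 31 (SD 0.253, n = 47), and the core sum was higher in all 47 cells. The regulatory genes here are PSMC and PSMD genes. SHFM1 and ADRM1 also encode subunits of this particle but fall outside the naming rule, and are given with the other pathway genes. SHFM1 had 1812 UMIs, below only PSMB1 and PSMB3 of the core genes. The levels of single genes overlapped: 7 core genes were above each of the 17 regulatory genes, and 4 of the 17, PSMD2, PSMD7, PSMD8 and PSMD13, were above the lowest core gene, PSMA5. The index of dispersion of the split, which is 1 where counting alone acts, was 2.43, beside a median of 2.11 for single spike-in RNAs, and spread of the ratio beyond the technical spread was not tested.

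**Figure D1:**
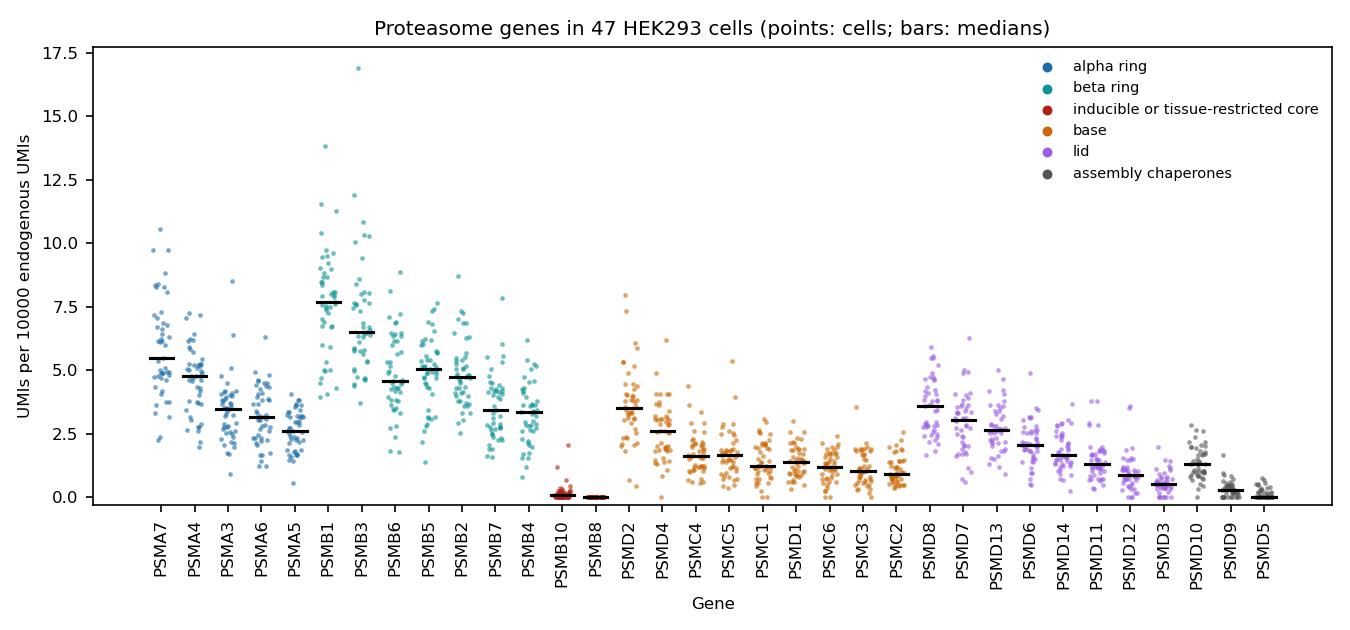
UMIs per 10000 endogenous UMIs (y axis) of 34 proteasome genes (x axis) in 47 HEK293 cells, with a point for each cell, a bar at the median and colours for the class of the gene. The highest genes are of the beta and alpha rings, with overlap between the classes, PSMB10 is near the floor, with its highest point at 2.06 in cell 14, and PSMB8 is at 0 in every cell.

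Length moved with this difference. Coding lengths of the core genes were 603 to 831 bases and those of the regulatory genes 930 to 2859 bases (principal transcripts of GENCODE 29), with no overlap, so coding length and particle cannot be told apart here. Over the 29 genes Spearman's rho of the summed UMIs with coding length was -0.793. It was -0.361 over the 12 core genes, -0.561 over the 17 regulatory genes and -0.347 over the 8066 tested genes with a length. PSMD1 and PSMD2, the longest, lay away from the others. Without this pair, chosen after the values were seen, rho over the other 15 regulatory genes was -0.882. Annotated transcript lengths overlapped more: 15 regulatory and 3 core genes (PSMA4, PSMA5 and PSMB2, annotated with long transcripts) lay between 1350 and 3729 bases, with medians of 516 and 1380 UMIs, a ratio of 2.67. The annotated transcript need not be the expressed one, and the part of length in the difference was not tested.

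**Figure D2:**
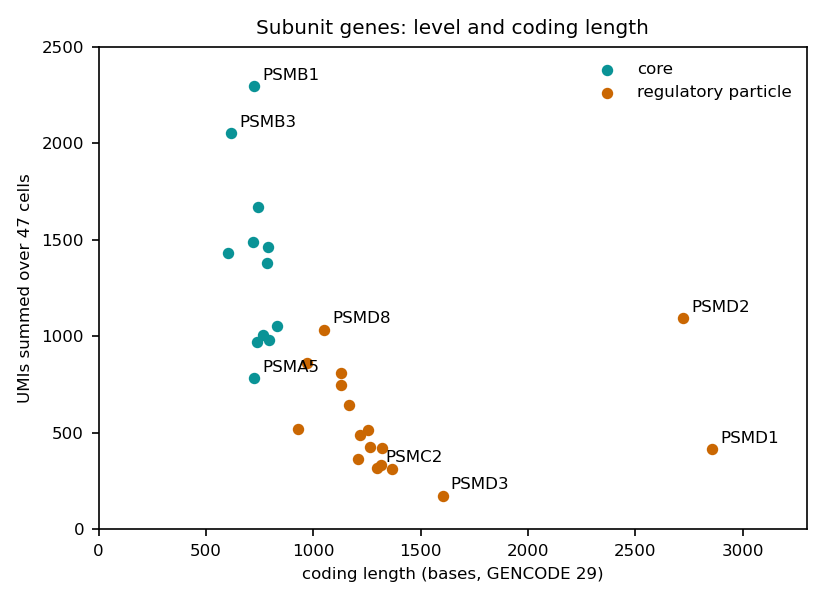
UMIs summed over 47 cells (y axis) against coding length in bases (x axis) for 12 core and 17 regulatory particle genes. The particles do not overlap in coding length, and PSMD2, with 1093 UMIs, is high for a long gene.

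In the alpha ring, whose proteins form the gate and the docking face of the barrel, PSMA7 led. It had 10 UMIs in the lowest cell, 33 in the median cell and 89 in the highest, or 5.71 per 10000 endogenous UMIs (95% exact Poisson interval 5.44 to 5.99). PSMA4 followed with 7, 30 and 79 UMIs in the lowest, median and highest cell (4.73 per 10000, 4.48 to 4.98) and PSMA3 with 6, 21 and 56 (3.45, 3.24 to 3.67). The intervals of these 3 did not overlap, though their ranges over cells did. PSMA6 had 3.32 per 10000, and its interval (3.11 to 3.53) overlapped that of PSMA3. PSMA5 was the lowest with 2, 15 and 41 UMIs (2.68, 2.50 to 2.88).

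The beta ring held the most abundant subunit mRNAs. PSMB1, a non-catalytic beta subunit, had 14 UMIs in cell 8, 49 in the median cell and 112 in cell 43, or 7.87 per 10000 (7.55 to 8.20). It ranked 193 of all genes by UMIs. PSMB3, also non-catalytic, had 15, 40 and 99 UMIs (7.03, 6.73 to 7.34). The catalytic genes were next: PSMB6, of the caspase-like site, had 6, 27 and 89 UMIs (5.10, 4.85 to 5.37), and PSMB5, of the chymotrypsin-like site, had 9, 29 and 86 (5.01, 4.75 to 5.27). Their intervals overlapped each other and that of PSMB2 (4.91, 4.65 to 5.17). PSMB7, of the trypsin-like site, was lower with 6, 21 and 74 UMIs (3.60, 3.39 to 3.83), and PSMB4 was the lowest with 3, 20 and 51 (3.36, 3.15 to 3.58), these intervals overlapping too.

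PSMB8 had no UMI in any of the 47 cells and PSMB10 had few. A count of 0 allows a share of up to 0.000103% of all endogenous UMIs, 3 counts of the total. PSMB5 had 1462 UMIs, at least 487-fold more than PSMB8 at that floor over all cells. PSMB10 had 51 UMIs in 24 cells against 1052 of PSMB7, so it gave 4.62% of the pair (exact binomial interval 3.46% to 6.03%). Together PSMB8 and PSMB10 gave 1.26% (0.938% to 1.65%) of the UMIs of these 2 and the 3 constitutive catalytic genes, with a median over cells of 0.565%. PSMB8 overlaps its antisense gene PSMB8-AS1, and the use of strand is not given in the sources used here.

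PSMB10 UMIs were uneven over cells. There were 23 cells with none, 14 with 1 UMI, 6 with 2, and 1 cell each with 3, 4, 7 and 11. The highest were cell 48 with 11 UMIs and cell 14 with 7. In cell 14, which had 34030 endogenous UMIs, PSMB7 also had 7, so PSMB10 gave 50% of that pair, while cell 48 had 36 of PSMB7. The index of dispersion of PSMB10 was 3.48, and 2.29 without cell 14, its highest cell after scaling.

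Interferon-response and MHC class I genes ranged widely in level. Of 17 listed genes of this kind 16 had a row, and TAP2 is not analysed here. TAP1, the peptide transporter gene beside PSMB9 in the genome, had 14 UMIs in 10 cells, IRF1, a transcription factor of the interferon response, had 22, and ISG15, IFIT1, IFIT3, MX1 and NLRC5 had 22, 22, 3, 2 and 1. B2M, the light chain of MHC class I, had 1620 UMIs, and HLA-B and HLA-C, which encode heavy chains, had 162 and 178. HLA-E, another heavy chain gene, had 34 and TAPBP, which encodes a peptide-loading chaperone, had 35. PSME1 and PSME2, inducible by interferon too, had 468 and 377. The list without PSME1 and PSME2 took 0.0999% of UMIs in cell 14 and 0.0821% in cell 48, against a median of 0.0754%, the ranks being 8 and 17 of 47. Cell 35, next with 4 PSMB10 UMIs, had 0.0655% (rank 38). Without B2M the values were 0.0206% in cell 14, 0.0285% in cell 48 and 0.0118% in cell 35, against a median of 0.0206%. ISG15 had 3 UMIs in cell 14, 3 in cell 48 and 0 in cell 35, 3 being its highest count in any cell. TAP1 had 0, 1 and 0 in the same cells. These cells were chosen after their PSMB10 counts were seen.

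PSMD2 and PSMD4 were the highest genes of the base. PSMD2, the scaffold that binds shuttle factors, had 2 UMIs in cell 23, 22 in the median cell and 70 in cell 62 (3.74 per 10000, 3.53 to 3.97), the highest of the 17 PSMC and PSMD genes of the regulatory particle. PSMD4, a ubiquitin receptor, had 0, 13 and 36 UMIs (2.56, 2.38 to 2.75), with 0 in cell 31. PSMD1, the other large scaffold, had 1, 8 and 21 (1.43, 1.29 to 1.57). The 6 ATPase genes, whose proteins form a hexamer ring, lay close together: PSMC4 was highest with 3, 9 and 36 UMIs (1.77, 1.62 to 1.93) and PSMC2 lowest with 1, 6 and 18 (1.08, 0.963 to 1.21), a 1.64-fold range. PSMC5 had 1.67, PSMC1 1.44, PSMC6 1.24 and PSMC3 1.13 per 10000. The intervals of PSMC6, PSMC3 and PSMC2 overlapped in turn.

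Levels of the PSMD genes of the lid spread more widely. PSMD8 had 6 UMIs in the lowest, 20 in the median and 47 in the highest cell (3.54 per 10000, 3.33 to 3.76). PSMD7, the partner of the deubiquitinase, had 2, 17 and 50 (2.94, 2.75 to 3.15) and PSMD13 had 5, 16 and 40 (2.78, 2.59 to 2.98), with overlapping intervals. PSMD14, the deubiquitinase itself, had 1, 10 and 35 (1.78, 1.63 to 1.94), below its partner. PSMD6, PSMD11 and PSMD12, structural lid subunits, had 2.21, 1.46 and 1.06. PSMD3 was the lowest of all 29 subunits with 0, 3 and 17 UMIs (0.593, 0.508 to 0.688), found in 40 of 47 cells. The 8 PSMD genes of the lid ranged 5.98-fold, against 1.64-fold among the ATPases, 2.13-fold in the measured alpha ring and 2.34-fold in the beta ring.

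The 3 assembly chaperones of the base, which leave before the particle is complete, were unequal. PSMD10, also known as gankyrin, had 0, 7 and 23 UMIs in the lowest, median and highest cell (1.38 per 10000, 1.25 to 1.52), in the range of the ATPases it helps to assemble. PSMD9 had 97 UMIs in 35 cells and PSMD5 had 45 in 20 cells. PSMD5 was the member with the fewest UMIs above the minimum of 20 for the test of spread, and PSMC1P1, a pseudogene with 17, was just under it.

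Some reads may belong to neighbours or copies. In GENCODE 29 exons of PSMC1, PSMC5, PSMD9 and PSMD13 overlap those of NRDE2, FTSJ3, WDR66 and SIRT3, and those of PSMA6, PSMB10, PSMD7, PSMD9 and PSMD11 overlap unnamed clone genes. Pseudogene rows of this family together held 34 UMIs, and how reads shared with processed copies were assigned is not given in the sources used here.

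Spread over cells is given as the index of dispersion. It compares a gene's UMIs in each cell with those that the cell's depth predicts, as a chi-square per degree of freedom, so that counting error alone gives 1. Among the 9088 genes with at least 20 UMIs, 88.0% exceeded counting error (chi-square test, Benjamini-Hochberg adjusted over all genes, threshold 0.05), and 5.40% exceeded the line fitted to the spike-ins, which shows the technical spread at each abundance. Of the 33 proteasome genes with enough UMIs 32 exceeded counting error, beside 88.0% of all genes tested, and PSMB8, with no UMI, could not be tested. Counting error was exceeded by 28 of the 29 constitutive subunits, beside 96.7% of the 2164 genes with 173 to 2297 UMIs. PSMA5 did not exceed it (index 1.29, adjusted p = 0.0959). The median index of the 29 constitutive subunits was 2.30, that of the 12 core genes 2.39 and that of the 17 regulatory genes 2.24. It was 2.00 over all genes tested and 2.31 over the 2164 genes with 173 to 2297 UMIs, the range of these subunits.

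Beyond the spike-in line were 2 proteasome genes, PSMB3 and PSMA7, both of the core. PSMB3 had an index of 3.86 (adjusted p = 0.00209), with 3.70 UMIs per 10000 in cell 35 and 16.9 in cell 31. PSMA7 had an index of 3.60 (adjusted p = 0.00977), with 2.25 per 10000 in cell 34 and 10.6 in cell 23. These indices were 3.02 without cell 31 and 3.43 without cell 23. Over the 2164 genes of like UMI totals 9.57% were beyond the line. Spike-ins in that range reached an index of 3.41, and the highest of all 52 was 3.97, so single spike-ins varied about as much as PSMB3 and PSMA7. The next indices, PSMB10 with 3.48 (adjusted p = 0.145), PSMD12 with 3.23 (0.135) and PSMD2 with 3.00 (0.158), did not pass. With TMM scaling 5 proteasome genes passed, PSMB1, PSMB6 and PSMD12 besides these, beside 6.37% of all genes. In cells thinned to equal depth 0 passed, beside 1.24% of all genes. The spike-ins were not thinned there, and thinning draws a gene's index towards that of counting error alone. That setting therefore cannot show whether the calls hold at equal depth. All 17 regulatory genes exceeded counting error, beside 96.7% of the 2164 genes of like UMI totals.

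**Figure D3:**
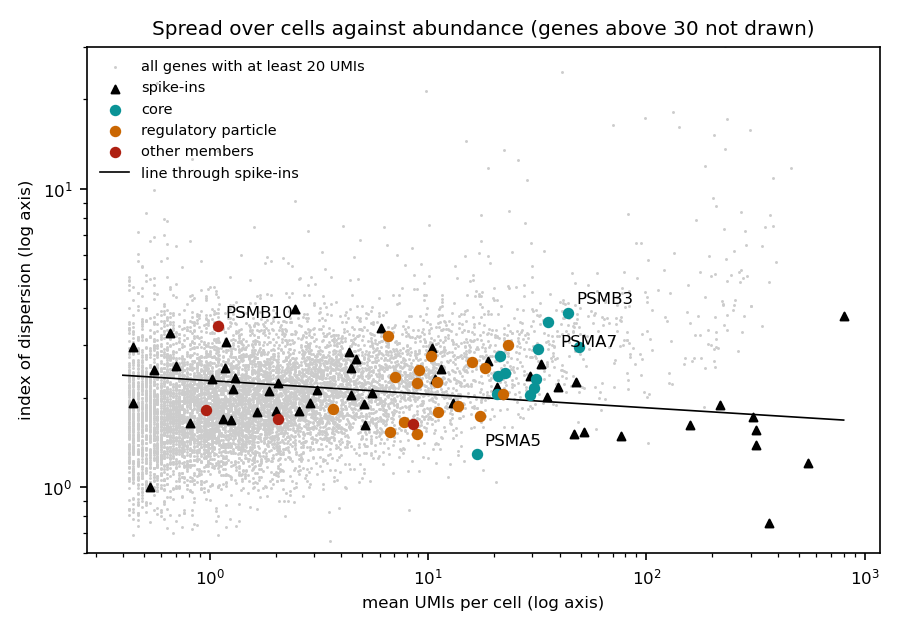
Index of dispersion (y axis, log) against mean UMIs per cell (x axis, log) for all genes with at least 20 UMIs (grey), spike-ins (triangles) and proteasome genes (coloured), with the line fitted to the spike-ins. Constitutive subunits lie on both sides of the line, PSMB3 and PSMA7 among the farthest above it, and PSMA5 below it. Their median index was 2.30, beside 2.31 for the 2164 genes of like UMI totals.

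Pairs of subunit genes were weakly correlated from cell to cell. Spearman's rho was taken over the 47 cells after scaling each to the median depth, and averaged 0.0312 over the 406 pairs of the 29 subunits. It was 0.0287 within the core, 0.0351 within the regulatory particle and 0.0293 between them. Over all pairs of the 9088 genes it was 0.0183. Over genes with at least 300 UMIs it was 0.0120, against 0.0280 for the 28 subunits with that many. Over genes with at least 750 UMIs it was 0.0206, against 0.0294 for 16 subunits. The cells share libraries, depth and counting noise in all these values, and counting noise of genes with few UMIs draws rho towards 0. Of the 406 pairs 57.9% were positive, with a range of -0.369 to 0.462. The mean depended on the scaling: it was 0.104 with TMM, where that of all genes was 0.0334, and 0.0181 with DESeq2 size factors (0.0166).

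Of the 3 highest pairs, 1 was within a part of the complex. They were PSMB7 with PSMC4 (rho = 0.462), PSMD6 with PSMD12 (0.457), both of the lid, and PSMA4 with PSMC6 (0.407). The lowest were PSMB2 with PSMD14 (-0.369) and PSMB3 with PSMB5 (-0.368), both of the beta ring. By ring or part the mean was 0.0146 in the alpha ring, 0.0462 in the beta ring, 0.00602 in the base and 0.0402 in the lid. Among the catalytic genes, rho was 0.242 for PSMB5 with PSMB6, 0.202 for PSMB6 with PSMB7 and -0.0221 for PSMB5 with PSMB7.

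**Figure D4:**
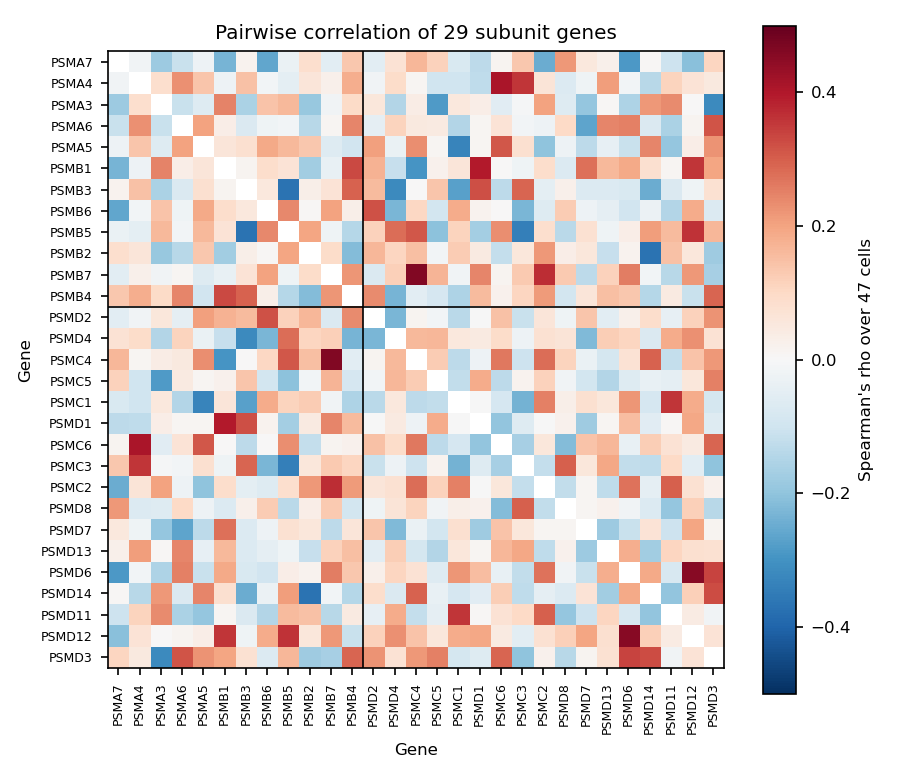
Spearman's rho over 47 cells (colour) for each pair of 29 subunit genes (both axes), ordered by class and level, with lines between core and regulatory particle genes and the diagonal left blank. Positive and negative pairs are mixed in every block, with no block of high values.

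Summed shares of the particles were also weakly related. The core share and the regulatory share of a cell's UMIs had rho = 0.213 and r = 0.271 (n = 47 cells, which share depth and a common denominator). Without cells 80 and 52, the 2 farthest from the median core share, rho was 0.115 and r 0.168, and in cells thinned to equal depth rho was 0.353. Cell 52, with the lowest share of the 29 genes, also had the lowest lid share, 0.0917%, against a median of 0.156%. The next lowest lid share was 0.106% in cell 55. Cell 74 had the highest total and the highest base share, 0.214%, and cell 50 the highest lid share, 0.238%.

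**Figure D5:**
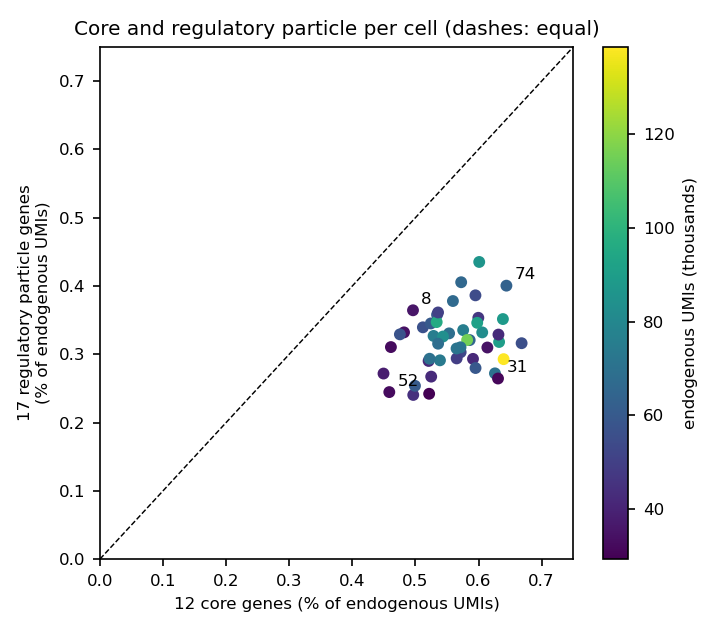
Share of a cell's endogenous UMIs in 17 regulatory particle genes (y axis, %) against that in 12 core genes (x axis, %), with a point for each of 47 cells coloured by endogenous UMIs and dashes at equal shares. All points lie below the dashes, and cells 8 and 31 have the lowest and highest ratio of core to regulatory particle.

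The share of the 29 subunits was related to depth and composition of the cell. Proteasome UMIs followed endogenous UMIs closely (rho = 0.968). The share itself was also higher in cells with more endogenous UMIs (rho = 0.417, r = 0.434). Without cells 43 and 62 these values were 0.399 and 0.469. The share was also higher in cells with more endogenous UMIs per spike-in UMI (rho = 0.352). It was lower in cells with a higher share of mitochondrial mRNA (rho = -0.465, and -0.430 without cell 52) or of ribosomal protein mRNA (rho = -0.311, and -0.398 without cell 52). Shares are parts of 1 total, and the part of this in these relations was not tested. With the summed share of 14 G1/S genes rho was 0.349 and r was 0.377, and without cells 3 and 87 they were 0.293 and 0.320. With 14 G2/M genes rho was 0.0756, with 9 heat-shock genes 0.304 (r = 0.190) and with 5 ubiquitin genes -0.124. The part of depth in the relations with cycle and stress genes was not tested.

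Other genes of the pathway were taken from a list of 38, of which 36 had a row and 35 enough UMIs for the test of spread. All 35 exceeded counting error (88.0% of all genes tested) and 7 the spike-in line (5.40% of all genes tested). The ubiquitin genes were the most abundant: RPS27A, which encodes ubiquitin fused to a ribosomal protein, had 250 ± 95.2 UMIs per cell (SD, n = 47), and UBB, a polyubiquitin gene, had 121 ± 47.6. UBA1, the main activating enzyme, had 12.9 ± 6.64. RPS27A and UBB were beyond the line (indices 3.95 and 3.73).

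Among factors that build or bind the proteasome, POMP, the maturation protein of the core, was above every subunit with 18, 49 and 142 UMIs in the lowest, median and highest cell. SHFM1, the small lid subunit, had 38.6 ± 18.7 UMIs per cell (SD, n = 47) and an index of 3.93, beyond the line. ADRM1, a ubiquitin receptor of the base, had 5.98 ± 4.55. Of the core assembly chaperones, which act in pairs, PSMG3 and PSMG4 had 10.6 ± 6.13 and 9.85 ± 6.90, and PSMG1 and PSMG2 had 6.32 ± 4.00 and 5.02 ± 3.70. PSMG4 was beyond the line (index 3.59), as were TXNL1, a thioredoxin bound to the regulatory particle (index 3.83), and PAAF1, an assembly factor of the base (index 5.92). PAAF1 had 86 UMIs, 19 of them in cell 74.

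Genes of alternative caps were found too. PSME1 and PSME2, which form an interferon-inducible activator ring, had 468 and 377 UMIs and were found in 47 and 45 cells. PSME3, the nuclear activator, had 310, PSME4 had 97, and the inhibitor PSMF1 had 309. The transcription factor NFE2L1, which drives proteasome genes when the protease is impaired, had 143 UMIs, and its processing factors DDI2 and NGLY1 had 65 and 100. None of these 8 genes was beyond the spike-in line (adjusted p from 0.400 to 1), beside 5.40% of all genes tested.

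The proteasome was set beside 3 complexes of like build. The CCT chaperonin, a ring of related subunits that folds actin and tubulin, had 8 genes that ranged 2.15-fold, took 0.377% of UMIs and had a mean pairwise rho of 0.114 over 28 pairs. The COP9 signalosome and eIF3, which share the fold of many lid subunits, took 0.0977% and 0.404%. They had mean rho of 0.0333 and 0.0532. COP9 genes ranged 10.4-fold, and eIF3 held EIF3C at 6 UMIs and EIF3I at 2495. The median index was 2.41 for CCT, 2.04 for the COP9 signalosome and 2.39 for eIF3, beside 2.30 for the proteasome subunits. None of the 29 tested genes of the 3 complexes was beyond the spike-in line, beside 5.40% of all genes tested. Differences between complexes were not tested.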

How the data were processed

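The authors deposited raw UMI counts of each gene in 47 cells, as whole numbers that were not normalized. Per the submitters' processing notes the tools were STAR 2.4.0a and cutadapt 1.2.1, with hg19 and GRCh37 as builds. Annotation, UMI collapsing, use of strand and multi-mapping reads are not given in the sources used here. All 47 columns matched a label and 0 were left over. A repeated header line (0.0602% of all values) and 78 spike-in rows stayed out of totals. The members and gene lists were chosen with earlier results of these data known.

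Pairwise rho used log2(UMIs scaled to the median total + 1). Levels are UMIs per 10000 endogenous UMIs, with 95% exact Poisson intervals, and shares have exact binomial ones. They cover counting error only. Indices were tested with the upper tail of the chi-square distribution, for genes with at least 20 UMIs, against 1 and against a log-log line through 52 spike-ins (2.28 at 1 UMI per cell, 1.85 at 100), with Benjamini-Hochberg adjustment over 9088 genes. The chi-square tail is approximate for genes with few UMIs, and the line is taken as exact. The index script was tested on simulated data. Named were the 3 highest and the lowest member of each class, all inducible members, members beyond the spike-in line, the 3 with the largest index, the 3 highest pairs and members next to the minimum of 20 UMIs, with the 3 highest other pathway genes and those beyond the line. Values of some listed genes are not reported here. Other genes were named after their values were seen. Lengths came from GENCODE 29, promoters from RefSeq. Alternatives used size factors of edgeR 4.0.16 (TMM) and DESeq2 1.42.0, in R 4.3.3. The rest ran in Python 3.11.15 with scipy 1.17.1.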

Additional observations from a re-analysis of the deposited data

How the results depend on the processing

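Levels kept their size and order under the alternatives run: without cell 52 no member of 34 changed rank, and with the mean over cells 4 changed, each by 1 place. The share of the 29 subunits (0.892%) lay between 0.879% and 0.944% over 6 alternatives and was 1.21% with ribosomal protein rows taken out of the denominator. The ratio of core to regulatory UMIs stayed between 1.64 and 1.80 over 6 alternatives and was 2.89 from the median gene of each class. PSMB8 and PSMB10 gave 1.26% of catalytic UMIs, 1.07% to 1.27% over 4 alternatives and 0.565% as the median over cells. Rows of the family beyond counting error, PSMC3IP included, were 33 of 34 tested, beside 88.0% of all genes. In thinned cells they were 24 of 33 (64.1% of all genes). With a minimum of 100 UMIs they were 29 of 30 (95.6%), and with a minimum of 5 UMIs 34 of 36 (80.4%). Under the other alternatives they were 33 or 34 of 34, beside 87.6% to 88.6% of all genes. Members beyond the spike-in line, 2 in the main analysis, were 5 with TMM scaling (PSMA7, PSMB1, PSMB3, PSMB6 and PSMD12). They were 0 in cells thinned to 29325 UMIs, where 1.24% of all genes were called. The spike-ins were not thinned, so this last setting cannot show whether the calls hold at equal depth. The mean pairwise rho of 0.0312 became 0.104 with TMM scaling, where that of all genes was 0.0334. With DESeq2 size factors it was 0.0181, where that of all genes was 0.0166. It lay between 0.0259 and 0.0416 otherwise. The value of 0.0259 was in thinned cells, where that of all genes was 0.00566. The cause of these changes was not tested. The rho of core and regulatory shares (0.213) was 0.115 without the 2 cells farthest from the median core share and 0.353 in thinned cells. No paired analysis was possible because the labels give only 1 group.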
